A study of Mus musculus with 3 samples.

Results

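The collagen family was profiled in embryonic mouse mammary cells on 3 Affymetrix arrays. The family was taken as every gene whose symbol has the form Col, number, a, number, measured by a probe set that the platform annotation pairs with 1 gene. Col17a1, whose product belongs to the hemidesmosome, was left out. This gave 41 genes and 67 probe sets out of 17097 genes, and each gene was represented by its probe set with the highest mean. Col6a6, Col21a1 and Col28a1 were not analysed here.

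All 3 arrays belonged to 1 group. The cells came from E14 (embryonic day 14) female embryos of the Lgr5-IRES-GFP line, in which the Lgr5 locus, a Wnt target, also drives green fluorescent protein. They were sorted for high fluorescence and for high CD49f, the integrin alpha 6 chain of basal epithelium, from a digest of epidermis together with mammary gland. Each array held cells pooled from all females of a single litter, no second group was compared, and 813 or 2000 cells were sorted per sample, without a label that says which sample had which number. The RNA was amplified before labelling.

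Collagens are proteins of the extracellular matrix whose glycine-rich chains wind around each other into a rope-like helix. Fibrillar collagens assemble into the cables of dermis, bone, tendon and cartilage, and fibril-associated collagens sit on the surface of those cables. Network collagens form sheets, among them the basement membrane under every epithelium, and transmembrane collagens are anchored in the plasma membrane. In skin and the embryonic mammary rudiment, epithelium and mesenchyme both deposit matrix, with fibrillar collagens known mainly as products of mesenchymal cells.

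Replicates 1 and 2 were far closer to each other than to replicate 3. Over all 45141 probe sets the SD of the difference was 0.19 log2 units between replicates 1 and 2, against 0.62 and 0.61 between each of them and replicate 3. The median value of the array was 6.25, 6.25 and 6.52 on replicates 1, 2 and 3. Every mean ± SD over 3 arrays below therefore rests on a pair of similar arrays and 1 that stood apart, and the calls of the collagen and collagen assembly genes were also made with replicates 1 and 2 averaged as 1 sample. The genes behind the sort were detected, Lgr5 at 10.27 ± 0.44 and Itga6 at 10.37 ± 0.40 log2 units (SD, n = 3).

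With no control samples, each gene was compared with background measured on the same arrays. Background was the 95th percentile of 74 olfactory and vomeronasal receptor genes, at 6.14, 6.17 and 5.99 log2 units on replicates 1, 2 and 3. A gene was called above background when its value minus this threshold was above 0 in limma with an adjusted p under 0.05 (one-sided, Benjamini-Hochberg over 17097 genes). Values of different probe sets depend on their probes, so collagen genes were not ranked against each other by level.

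Collagen genes were detected more often than not. Of the 41 genes, 28 (68.3%) were above background, where 55.1% of all 17097 genes were. The median of the mean value minus the threshold was 1.90 log2 units over the 41 collagen genes and 0.78 over all genes. The number depended on what set the threshold. With the 95th percentile of 40 genes restricted to unrelated tissues, 22 collagen genes (53.7%) were above background and 35.6% of all genes. Of those 40 genes themselves, 11 (27.5%) passed the receptor threshold. With the brightest antigenomic control of each array, which binds no mouse transcript by design, 21 (51.2%) were above background and 31.6% of all genes. At the 99th percentile of the receptor genes, 25 (61.0%) passed and 47.8% of all genes. With replicates 1 and 2 averaged as 1 sample, 28 collagen genes were again above background, with Col8a2 called and Col10a1 no longer called. That fit on 2 values per gene rested largely on a variance shared between genes. Col2a1 had adjusted p = 4.19e-20 in it, against 0.00165 with 3 arrays (limma). It therefore does not show that the calls hold given each gene's own spread.

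**Figure D1:**
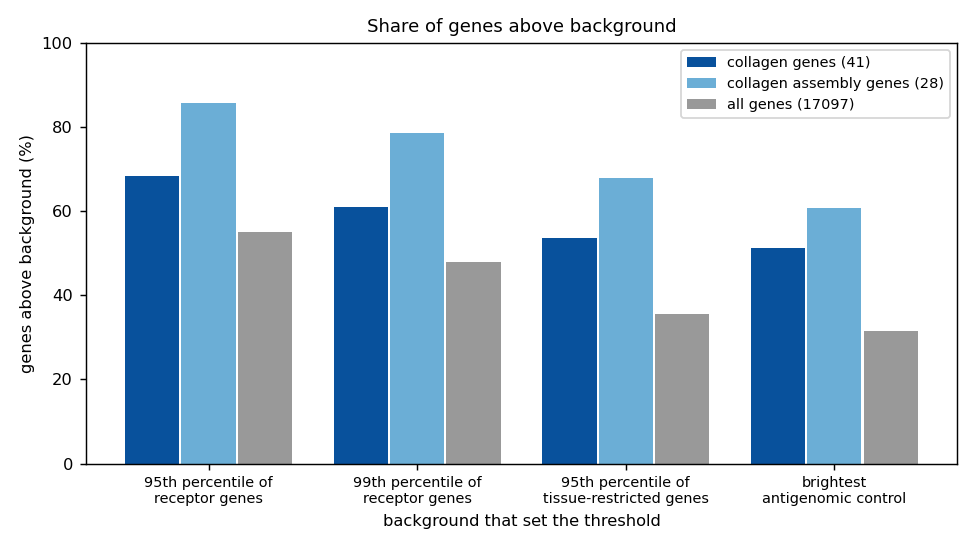
Share of genes above background in percent, for 41 collagen genes, 28 genes of collagen assembly and all 17097 genes, under each of the 4 backgrounds on the horizontal axis. The collagen share is 68.3% at the receptor threshold and 51.2% at the antigenomic control, against 55.1% and 31.6% of all genes.

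**Figure D2:**
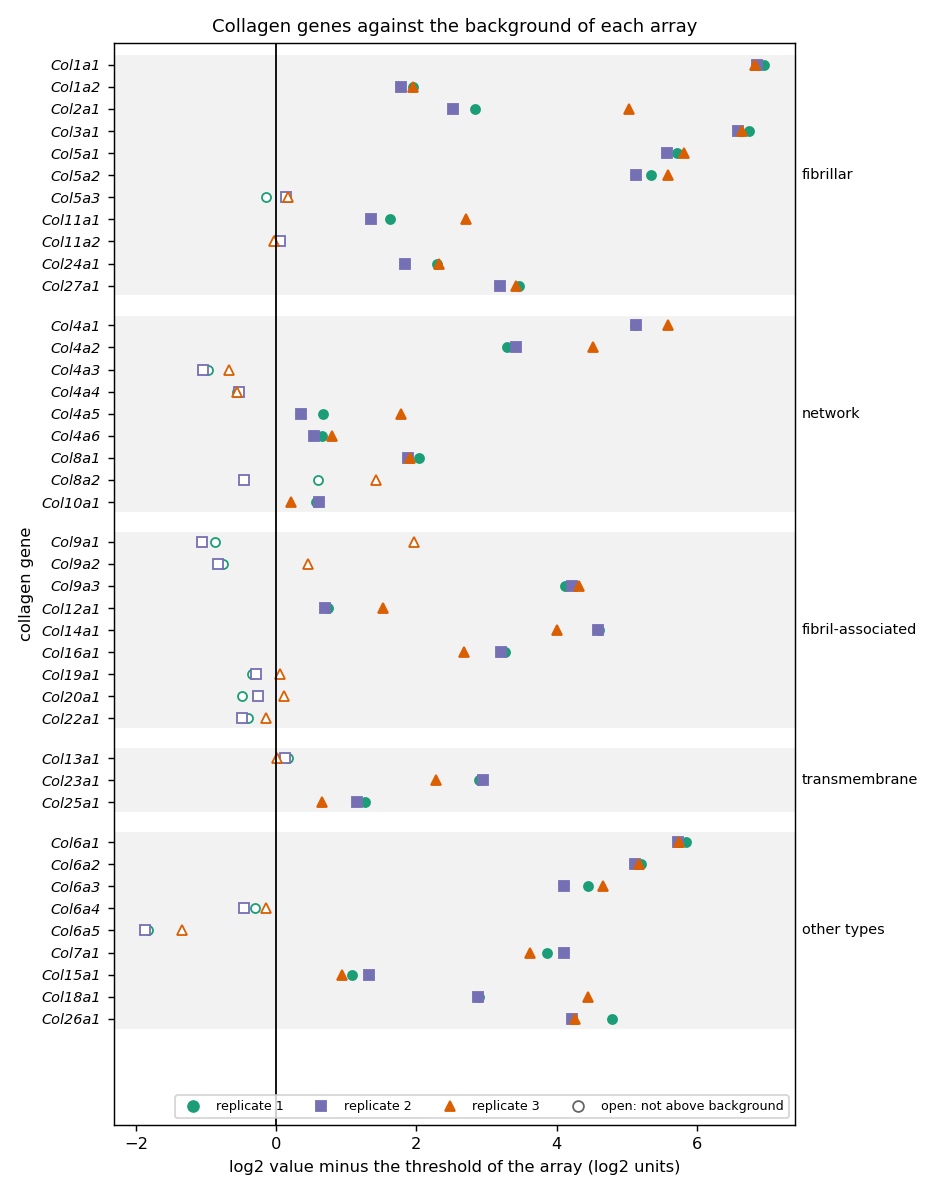
Each collagen gene on each of the 3 arrays, as log2 value minus the threshold of that array (horizontal axis), grouped by type. Open symbols are genes not above background, the line at 0 is the threshold, and distances along the axis are not comparable between genes. Col1a1, Col3a1 and the type VI genes Col6a1 and Col6a2 have 3 nearly coinciding points, whereas Col2a1, Col9a1 and Col18a1 have replicate 3 far to the right.

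Of the 11 fibrillar collagens, 9 (81.8%) passed the test, where 55.1% of all genes did, and the median of the 11 stood 3.36 log2 units above the threshold. Type I collagen, the main fibril of dermis and bone, is built from the products of Col1a1 and Col1a2. The log2 values of Col1a1 on replicates 1, 2 and 3 were 13.10, 13.03 and 12.82, with the mean 6.88 above the threshold (adjusted p = 5.38e-06). Col1a2 had 8.10, 7.95 and 7.94, and was 1.89 above it (adjusted p = 0.000170). On each array both genes of type I lay above the threshold, and each varied by less than 0.3 log2 units.

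Col3a1, whose product forms the thin fibrils of soft and fetal tissue, had 12.88, 12.76 and 12.63 on replicates 1, 2 and 3 (adjusted p = 5.38e-06). Its second probe set read lower, at 8.55, 8.50 and 8.95, and was also above the threshold on each array. Type V collagen lies inside type I fibrils and starts their assembly. Col5a1 stood at 11.80 ± 0.06 log2 units and Col5a2 at 11.46 ± 0.14 (SD, n = 3), with adjusted p of 7.26e-06 and 1.25e-05. The third gene of that type, Col5a3, stood at 6.15 ± 0.16 and was not above background (adjusted p = 0.565). Of type V, then, the 2 chains that make its common form were called and the chain of more restricted use was not.

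Col24a1 and Col27a1 encode fibrillar chains that are less abundant in tissue and are known from bone and cartilage. They were above background at 8.25 ± 0.22 and 9.46 ± 0.13 log2 units (SD, n = 3), with adjusted p of 0.000196 and 3.76e-05. Both probe sets of Col27a1 were above the threshold. Col2a1, Col11a1 and Col11a2, the fibrillar genes of cartilage, are given with the comparison of litters.

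For Col1a2 the 300 bases around the annotated start, 250 before it and 50 after, are shown because type I collagen is the defining fibril of the group. The window is chr6:4505368-4505667 on the plus strand of GRCm38.p6 (RefSeq), 61.0% G and C, and capitals mark CCAAT and GGGCGG on either strand.
Col1a2: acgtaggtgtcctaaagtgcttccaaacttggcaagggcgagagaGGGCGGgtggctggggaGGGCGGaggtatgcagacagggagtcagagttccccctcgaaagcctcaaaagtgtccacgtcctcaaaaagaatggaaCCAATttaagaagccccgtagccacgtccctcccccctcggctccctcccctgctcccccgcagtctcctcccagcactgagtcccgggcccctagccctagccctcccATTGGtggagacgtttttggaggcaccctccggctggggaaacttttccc
Each of these motifs occurs more than once in the window. CCAAT, the binding motif of the factor NF-Y, is found in 34.3% of the 35 windows of 32 collagen genes in the RefSeq table and in 37.4% of all 32851 windows. GGGCGG, the core of the Sp1 motif, is found in 62.9% of the collagen windows and 35.7% of all windows. TATAAA is found in 11.4% and 13.6%. These are matches of letters on both strands, with no test, and they do not show binding.

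Of the 9 network collagens, 6 (66.7%) passed the test, where 55.1% of all genes did. At each of the 3 stricter thresholds 3 of 9 (33.3%) did, against 47.8% of all genes at the 99th percentile of the receptor genes, 35.6% with tissue-restricted genes and 31.6% with the antigenomic control. Col4a1 and Col4a2 encode the chains of type IV collagen that all basement membranes contain. Col4a1 had 11.27, 11.30 and 11.58 log2 units on replicates 1, 2 and 3, and Col4a2 had 9.43, 9.59 and 10.51. Both were above background (adjusted p = 1.48e-05 and 0.000146) at every threshold tried, and both were highest on replicate 3. The difference of replicate 3 from the mean of replicates 1 and 2 was 1.00 for Col4a2 and 0.30 for Col4a1, and after quantile normalization 0.58 and -0.02.

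Col4a1 and Col4a2 lie head to head. Their windows in GRCm38.p6 (RefSeq) are chr8:11312777-11313076 on the minus strand for Col4a1 and chr8:11312555-11312854 on the plus strand for Col4a2. The windows are shown because both genes were above background and their starts are annotated 21 bases apart. Which start was in use cannot be read from the arrays. The windows share 78 bases and are 74.0% and 73.7% G and C. Capitals mark CCAAT and GGGCGG on either strand.
Col4a1: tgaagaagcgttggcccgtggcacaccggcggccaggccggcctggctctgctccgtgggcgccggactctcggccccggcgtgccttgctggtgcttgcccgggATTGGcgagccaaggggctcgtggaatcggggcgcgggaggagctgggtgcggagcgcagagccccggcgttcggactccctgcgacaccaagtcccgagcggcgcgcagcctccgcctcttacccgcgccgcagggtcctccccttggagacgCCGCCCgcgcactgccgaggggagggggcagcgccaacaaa
Col4a2: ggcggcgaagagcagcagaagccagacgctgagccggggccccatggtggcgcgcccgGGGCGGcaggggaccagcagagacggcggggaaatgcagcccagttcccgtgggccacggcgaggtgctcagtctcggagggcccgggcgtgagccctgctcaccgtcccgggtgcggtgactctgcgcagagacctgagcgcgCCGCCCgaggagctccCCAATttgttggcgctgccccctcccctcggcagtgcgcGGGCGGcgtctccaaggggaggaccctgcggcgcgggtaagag
Neither window holds TATAAA. The stretch that the windows share holds a GGGCGG, read on opposite strands in each, and the CCAAT of Col4a2 ends on the first base of that stretch.

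The other type IV genes behaved otherwise. Col4a3 and Col4a4 encode chains of the specialised basement membranes of kidney, lung and inner ear, and stood at 5.21 ± 0.09 and 5.55 ± 0.11 log2 units (SD, n = 3), under the threshold on all 3 arrays. Col4a5 and Col4a6, whose products join in the basement membranes of skin and smooth muscle, were above the receptor threshold. Col4a6 had 6.80, 6.71 and 6.79 on replicates 1, 2 and 3 (adjusted p = 0.00491). Col4a5 had 6.81, 6.53 and 7.77 (adjusted p = 0.0276), and its second probe set had 4.07, 4.17 and 5.98, under the threshold on each array. Neither gene was called at the 3 stricter thresholds. Their annotated starts face away from each other and lie 1343 bases apart, so unlike those of Col4a1 and Col4a2 their windows share no base.

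Col8a1 encodes a chain of type VIII collagen, a short-chain network of vessel walls and of the corneal endothelium, and stood at 8.05 ± 0.15 log2 units (SD, n = 3, adjusted p = 0.000154). The lowest of its 3 probe sets was under the threshold on replicates 1 and 2. Col8a2, the partner chain, had the widest range of the network genes, with 6.74, 5.71 and 7.41 on replicates 1, 2 and 3, and missed the call (adjusted p = 0.188). It was the only collagen gene for which replicates 1 and 2 lay over 1 log2 unit apart. Col10a1, a marker of hypertrophic cartilage, had 6.71, 6.78 and 6.20. It was above the receptor threshold (adjusted p = 0.0248), and was not called without replicate 1 (adjusted p = 0.182), without replicate 2 (0.195) or at any of the 3 stricter thresholds.

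Fibril-associated collagens divided into 4 genes above background (44.4%, against 55.1% of all genes) and 5 not, out of 9. Type XIV collagen, the product of Col14a1, and type XII, the product of Col12a1, bind type I fibrils in tissues under tension. Col14a1 had 10.75, 10.77 and 9.99 log2 units on replicates 1, 2 and 3 (adjusted p = 2.92e-05). Col12a1 had 6.88, 6.86 and 7.51 (adjusted p = 0.00695), and was not called against tissue-restricted genes or the antigenomic control. Col16a1, whose product is known from the dermal-epidermal junction, had 9.40, 9.37 and 8.67 (adjusted p = 7.95e-05). Col14a1 and Col16a1 were lower on replicate 3, and Col12a1 was higher there.

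Col9a1, Col9a2 and Col9a3 encode the chains of type IX collagen, which decorates the fibrils of cartilage. Col9a3 stood apart from its partners, at 10.26, 10.39 and 10.31 log2 units on replicates 1, 2 and 3 (adjusted p = 1.93e-05), with its second probe set above the threshold too (9.15, 9.64 and 10.36). Col9a1 had 5.26, 5.12 and 7.95, and Col9a2 had 5.38, 5.35 and 6.45, so both were under the threshold on replicates 1 and 2 and above it on replicate 3. By the test over all arrays neither was above background (adjusted p = 0.772 and 1). The fibril-associated genes Col19a1 (5.91 ± 0.12), Col20a1 (5.89 ± 0.22) and Col22a1 (5.76 ± 0.08, SD, n = 3), the last known from the junction of muscle and tendon, were not above background either.

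Of the 3 transmembrane collagens, Col23a1 and Col25a1 (66.7%) were above background, against 55.1% of all genes, and Col13a1 was not. Col23a1 had 9.04, 9.13 and 8.27 log2 units on replicates 1, 2 and 3 (adjusted p = 0.000139), and all 3 of its probe sets were above the threshold on each array. Col25a1, known from brain and from motor innervation of muscle, had 7.40, 7.32 and 6.64 (adjusted p = 0.00293). It was not called against tissue-restricted genes or the antigenomic control, and its second probe set was under the threshold on each array. Col13a1, a component of neuromuscular junctions, stood at 6.20 ± 0.17 (SD, n = 3), above the threshold on each array by at most 0.16 and not above background by the test (adjusted p = 0.358). All 3 genes had their lowest value on replicate 3.

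The remaining types belong to none of these groups, and 7 of their 9 genes (77.8%) were above background, against 55.1% of all genes. Type VI collagen forms beaded filaments around cells, and its main chains are encoded by Col6a1, Col6a2 and Col6a3. Their log2 values were 11.87 ± 0.12, 11.27 ± 0.10 and 10.50 ± 0.20 (SD, n = 3), with adjusted p of 6.79e-06, 8.77e-06 and 2.52e-05. Col6a4 (5.80 ± 0.08) and Col6a5 (4.42 ± 0.20), which encode further type VI chains, were under the threshold on each array. Thus type VI, like types IV and V, had the genes of its widespread chains called and others of its genes not called. In type IV, Col4a5 and Col4a6 were called as well at the receptor threshold.

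Col7a1 encodes the anchoring fibrils that tie the epidermal basement membrane to the dermis. It had 10.01, 10.28 and 9.62 log2 units on replicates 1, 2 and 3 (adjusted p = 3.17e-05). Col15a1 and Col18a1 encode related proteoglycan collagens of basement membranes, and the tail of the Col18a1 product is the source of endostatin. Col18a1 had 9.03, 9.05 and 10.44 (adjusted p = 0.000451), and Col15a1 had 7.22, 7.49 and 6.93 (adjusted p = 0.00110), with Col15a1 not called against tissue-restricted genes or the antigenomic control. On replicate 3 Col18a1 was the higher and Col15a1 the lower of its 3 values. Col26a1 had 10.93, 10.39 and 10.26 (adjusted p = 2.66e-05).

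**Figure D3:**
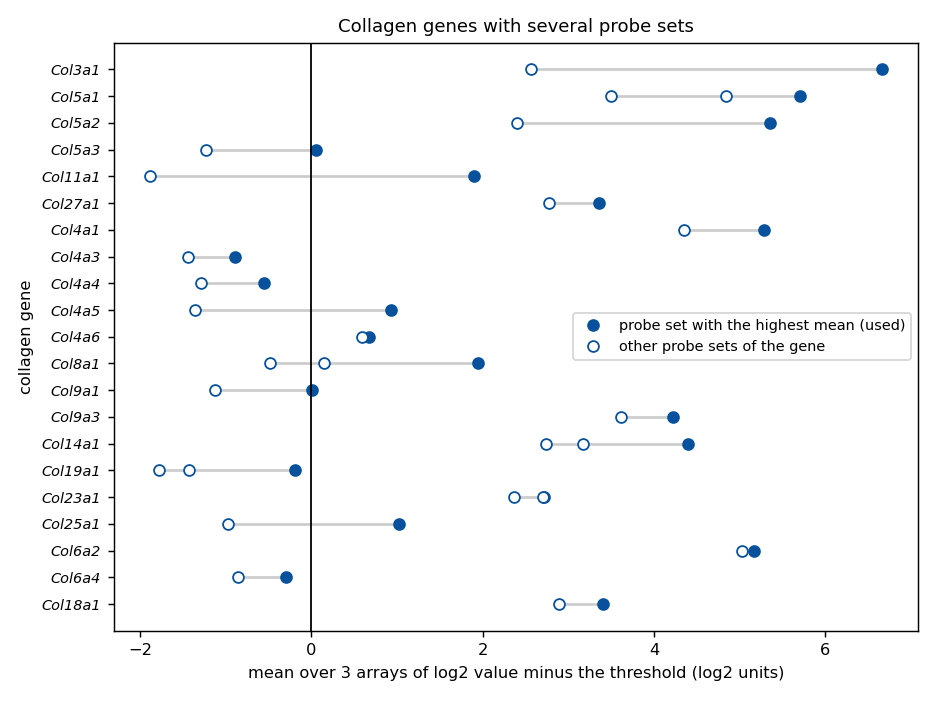
Probe sets of the 21 collagen genes that have more than 1, each as the mean over 3 arrays of log2 value minus the threshold (horizontal axis). Filled points are the probe sets used and open points the others, and 6 genes (Col5a3, Col11a1, Col4a5, Col8a1, Col9a1 and Col25a1) have points on both sides of the threshold at 0.

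Of the 41 genes, 21 had more than 1 probe set, and for 15 of these all probe sets lay on the same side of the threshold. The median gap between the highest and the lowest probe set of a gene was 1.14 log2 units over these 21 genes. The median SD between arrays over all 41 collagen genes was 0.20, a different measure that is not directly comparable with a gap. The widest gap belonged to Col3a1 (4.09), where both probe sets were above the threshold, and the next to Col11a1 (3.78), where 1 was not.

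The widest differences between litters were those of Col9a1 and Col2a1, both cartilage collagens, which were higher on replicate 3. Each litter was measured once, so these differences are described and not tested, and they cannot be told apart from batch or from the number of cells sorted. Over all genes, replicate 3 lay 0.22 log2 units above the mean of replicates 1 and 2 in the median, and over the 41 collagen genes 0.01. By contrast replicates 1 and 2 differed by less than 0.5 log2 units for 39 of 41 collagen genes. This closeness was not particular to collagens, since the median absolute difference was 0.11 over them and 0.10 over all genes. Replicate 3 was higher than the mean of the others by over 1 log2 unit for 7 collagen genes (17.1%), where 9.36% of all genes were, and lower by as much for 0, where 1.35% of all genes were.

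The 7 genes were Col2a1, Col11a1, Col9a1, Col9a2, Col4a5, Col8a2 and Col18a1. Type II collagen, the product of Col2a1, is the main fibril of cartilage and is also made in notochord and other embryonic tissues. Col2a1 had 11.01 log2 units on replicate 3, against 8.98 and 8.69 on replicates 1 and 2, and was above the threshold on every array (adjusted p = 0.00165). Col9a1 had 7.95 on replicate 3, against 5.26 and 5.12. Col11a1, whose product is the core of cartilage fibrils, had 8.70 on replicate 3, against 7.77 and 7.53 (adjusted p = 0.00201). Its partner in type XI, Col11a2, was not above background and had 5.96 on replicate 3, against 6.15 and 6.22 on replicates 1 and 2. The cartilage collagens did not all move alike, since the chosen probe sets of Col9a3, Col11a2 and Col10a1 were no higher on replicate 3 than on replicate 2. The second probe set of Col9a3 was higher on replicate 3 than the mean of replicates 1 and 2, by 0.96.

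Where these genes had a second probe set, it was higher on replicate 3 as well. The difference of replicate 3 from the mean of replicates 1 and 2 was 2.76 for the chosen probe set of Col9a1 and 1.24 for the other. For Col11a1 the pair of differences was 1.05 and 0.84, for Col18a1 it was 1.40 and 0.96, and for Col4a5 it was 1.10 and 1.86. The second probe sets of Col9a1, Col11a1 and Col4a5 were under the threshold on each array. Only that of Col18a1 was above it on each array. After quantile normalization, which gives the arrays equal distributions, the chosen probe sets of all 7 genes were still higher on replicate 3, by 2.42 for Col9a1, 1.79 for Col2a1, 0.97 for Col18a1, 0.87 for Col8a2, 0.82 for Col9a2, 0.74 for Col4a5 and 0.65 for Col11a1. Then 2 collagen genes (4.88%), Col9a1 and Col2a1, were higher by over 1 log2 unit, where 4.32% of all genes were.

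**Figure D4:**
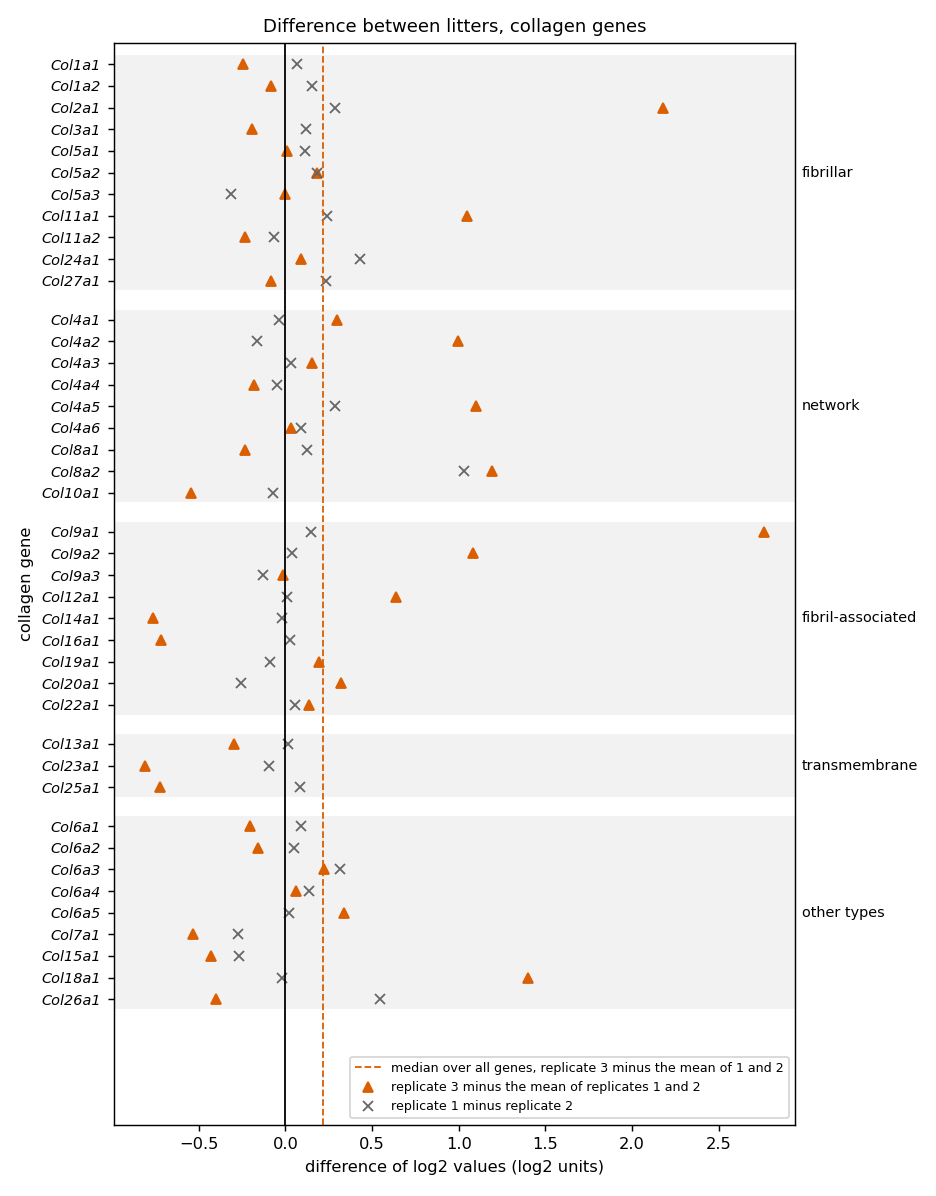
Differences between arrays for each collagen gene in log2 units: triangles give replicate 3 minus the mean of replicates 1 and 2, crosses give replicate 1 minus replicate 2. The dashed line is the median of the first difference over all genes (0.22). Col9a1 (2.76) and Col2a1 (2.18) lie furthest to the right and Col23a1 (-0.81) furthest to the left, while crosses lie within 0.5 of 0 except those of Col8a2 (1.03) and Col26a1 (0.55).

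No collagen gene was lower on replicate 3 by over 1 log2 unit in the deposited values. Col23a1, Col14a1, Col25a1 and Col16a1 were lower on replicate 3 than the mean of replicates 1 and 2 by between 0.72 and 0.81 log2 units. Below them came Col10a1 (-0.55), Col7a1 (-0.53), Col15a1 (-0.43) and Col26a1 (-0.40). All 3 probe sets of Col23a1 were lower on replicate 3, by 0.52 to 1.11. The other probe sets of Col14a1 and Col25a1 did not follow, with differences of 0.06 and 0.18 for Col14a1 and 0.99 for Col25a1. After quantile normalization 4 collagen genes (9.76%), namely Col23a1 (-1.22), Col14a1 (-1.17), Col16a1 (-1.14) and Col25a1 (-1.03), were lower by over 1, where 4.39% of all genes were.

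Both annotated starts of Col9a1 are shown because this gene had the widest range over the arrays of all 41. The arrays do not say which start was in use. The windows are chr1:24177360-24177659 and chr1:24194953-24195252, both on the plus strand of GRCm38.p6 (RefSeq), 47.3% and 55.7% G and C, and capitals mark CCAAT, which is found once, in the downstream window.
Col9a1 upstream start: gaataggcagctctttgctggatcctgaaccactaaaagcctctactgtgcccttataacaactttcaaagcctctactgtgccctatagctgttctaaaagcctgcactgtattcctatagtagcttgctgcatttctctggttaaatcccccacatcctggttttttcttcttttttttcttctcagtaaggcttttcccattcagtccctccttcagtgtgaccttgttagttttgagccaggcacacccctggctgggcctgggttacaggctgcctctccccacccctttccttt
Col9a1 downstream start: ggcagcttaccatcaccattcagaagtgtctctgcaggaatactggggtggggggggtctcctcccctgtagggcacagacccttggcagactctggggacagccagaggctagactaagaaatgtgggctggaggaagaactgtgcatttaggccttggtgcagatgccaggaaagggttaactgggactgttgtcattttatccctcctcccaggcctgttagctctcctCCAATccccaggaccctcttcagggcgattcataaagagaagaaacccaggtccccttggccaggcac
Neither window holds a match to TATAAA or GGGCGG on either strand. The letters ACAATG, a core of the motif of Sox factors such as Sox9, which drives cartilage collagens, occurs in 0 of the 35 collagen windows on either strand and in 12.6% of all windows. This says only that those letters are not in these windows, and enhancers elsewhere were not searched.

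Several cartilage markers other than collagens were also higher on replicate 3. Of 9 such genes, 3 (33.3%) were above background over the arrays, namely Sox9, Sox5 and Acan, against 55.1% of all genes. Acan was not called at any of the 3 stricter thresholds, and Sox9 was not called against the antigenomic control. The highest value was on replicate 3 for 8 of the 9 genes, as it was for 10785 of all 17097 genes. Replicate 3 was higher than the mean of replicates 1 and 2 by over 1 log2 unit for 4 of the 9, against 9.36% of all genes. Sox9, the transcription factor gene of cartilage that is also active in other epithelial and neural tissues, had 9.47 log2 units on replicate 3, against 7.73 and 7.86 on replicates 1 and 2. Hapln1, the gene of the cartilage link protein, had 6.96 against 5.29 and 5.27, and Cnmd, the chondromodulin gene, had 6.62 against 5.10 and 5.15. Both were chosen for mention after their values were seen. Acan, the gene of aggrecan, had 6.42 against 6.60 and 6.52. For Matn3 the difference of replicate 3 from the mean of replicates 1 and 2 was 0.24, where the median of all genes was 0.22, and -0.016 after quantile normalization. Matn1, which encodes a matrilin of cartilage, had 5.87 on replicate 3 and stayed under the threshold there, and Matn3 and Comp were under it on each array. The summed antilog value of the 9 genes was 1667 on replicate 3, against 781 and 785 on replicates 1 and 2, in arbitrary units. Over all genes the sum was 6230727 on replicate 3, against 5065939 and 5031182. Sox9 alone made up 710 of the sum on replicate 3, against 212 and 233, and the other 8 genes summed to 956, against 569 and 552. The part of these genes in the collagen values of replicate 3 was not tested.

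**Figure D5:**
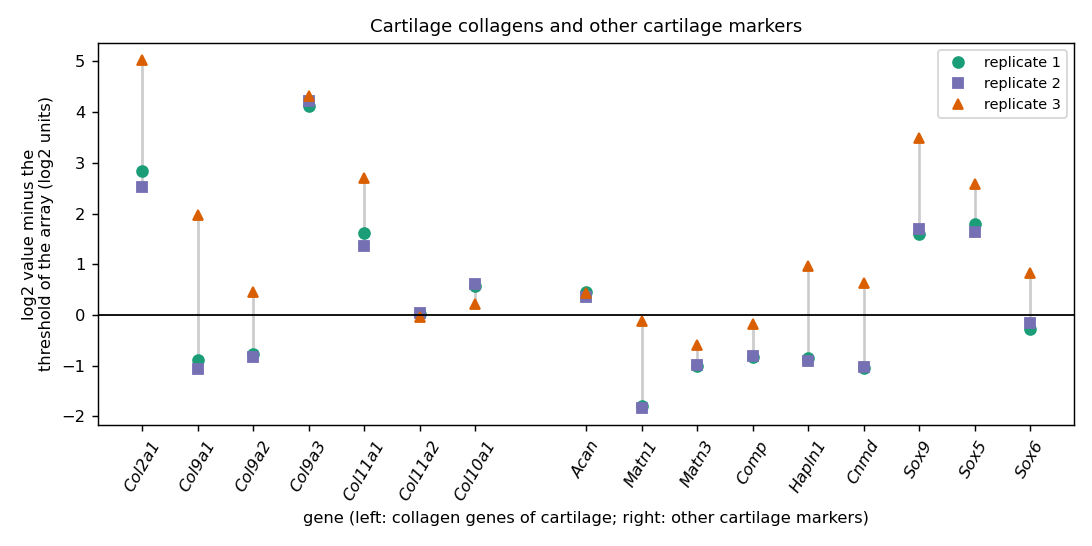
Collagen genes of cartilage (left) and other cartilage markers (right) on each array, as log2 value minus the threshold of the array (vertical axis, 0 is the threshold). Replicate 3 lies above replicates 1 and 2 for Col2a1, Col9a1, Col9a2, Col11a1 and, narrowly, Col9a3. The same holds for 8 of the 9 other markers, and for Acan it lies between them. For Col9a3 replicate 3 is highest only once the threshold is subtracted.

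Markers of mesenchyme were measured in the same pools. Of 13 such genes, 10 (76.9%) were above background, against 55.1% of all genes, among them Pdgfrb (8.84 ± 0.20), Twist1 (9.80 ± 0.17) and Twist2 (10.80 ± 0.27 log2 units, SD, n = 3). Pdgfra, Mfap5 and S100a4 were not. Pdgfra, the receptor gene commonly used to mark mesenchyme, had 4.62, 4.52 and 5.52 on replicates 1, 2 and 3, under the threshold on each array, and Mfap5 had 5.64, 5.66 and 6.35. The summed antilog value of the 13 was 15219, 13717 and 12189 on replicates 1, 2 and 3, in arbitrary units. All 10 measured markers of basal epithelium were above background, such as Krt5 (12.15 ± 0.16), Krt14 (11.38 ± 0.25) and Krt15 (7.29 ± 0.31). Their sum was 11977, 15061 and 15823 on replicates 1, 2 and 3, where that of all genes was 5065939, 5031182 and 6230727. Krt15 was not called against tissue-restricted genes or the antigenomic control. Each array measured the RNA of a pool, in which fewer cells of a type and less RNA per cell cannot be told apart. The part of the mesenchyme genes in the collagen values was not tested.

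Markers of other cell types that could be in the pools were read against the same 55.1% of all genes. Endothelial markers were above background for 2 of 9 genes (22.2%), Pecam1 (8.12, 8.30 and 6.47 on replicates 1, 2 and 3) and Egfl7 (7.29 ± 0.40), and Cdh5 (5.81 ± 0.27) and Kdr (6.35 ± 0.35 log2 units, SD, n = 3) were not. The sum of the endothelial list was 826, 807 and 694 on replicates 1, 2 and 3. Pericyte markers reached 3 of 5, namely Mcam, Notch3 and Pdgfrb, the last of which is also on the mesenchyme list, while Rgs5 (6.42 ± 0.46) and Kcnj8 (5.42 ± 0.12) were not above background. Schwann cell and melanocyte markers reached 2 of 6 (33.3%) with Sox10 (8.02 ± 0.22) and Pmel (7.33 ± 0.26), and not Foxd3 (5.12 ± 0.36) or Dct (6.36 ± 0.58). Skeletal muscle reached 1 of 7 (14.3%) with Myod1 (7.07 ± 0.25), and Myog (5.97 ± 0.15) and Myf5 (3.95 ± 0.13) were not above background. Most markers of these neural crest and muscle lists were thus not detected. Leukocyte markers reached 3 of 8 (37.5%) with Cd68 (8.83 ± 0.26), Csf1r (6.47 ± 0.14) and Fcer1g (7.29 ± 0.46), and not Ptprc (4.03 ± 0.20) or Tyrobp (5.81 ± 0.70). At the tissue-restricted threshold 0 of 9 endothelial and 0 of 7 muscle genes were above background, against 35.6% of all genes. There 3 of 5 pericyte genes, 1 of 6 Schwann cell and melanocyte genes and 1 of 8 leukocyte genes were. These lists were chosen with earlier results of the same arrays known.

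The machinery that modifies, folds and crosslinks collagen was detected along with its substrates. Of 28 measured genes, 24 (85.7%) were above background, against 55.1% of all genes. At the tissue-restricted threshold 19 (67.9%) were, against 35.6% of all genes. Prolyl hydroxylases stabilise the collagen helix, and P4ha2 (8.26 ± 0.14) and P4ha3 (6.75 ± 0.28) (log2 units, SD, n = 3) were above background. P4hb, the gene of their shared subunit, had 10.93, 10.75 and 11.31 on replicates 1, 2 and 3 and was above background too. P4ha3 was not called at any of the 3 stricter thresholds. Also above background were the lysyl hydroxylase genes Plod1 (9.08 ± 0.24), Plod2 (9.13 ± 0.17) and Plod3 (9.81 ± 0.05), whose products prepare the crosslinks. Serpinh1, the gene of the collagen chaperone HSP47, had 11.81, 11.65 and 11.73 on replicates 1, 2 and 3 (adjusted p = 7.81e-06). Lox, the gene of the oxidase that crosslinks fibrils, had 10.31, 9.98 and 9.62 (adjusted p = 3.41e-05), and Loxl1, Loxl2, Loxl3 and Loxl4 were above background as well. Loxl2 and Loxl3 were not called against the antigenomic control, and Loxl3 was not called against tissue-restricted genes either.

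Processing of the ends of the chains was covered in part. Bmp1, the gene of the protease that removes the carboxy-terminal propeptide, stood at 10.65 ± 0.12 log2 units (SD, n = 3, adjusted p = 1.95e-05). The 4 genes not above background were its relatives Tll1 (4.19 ± 0.65) and Tll2 (5.14 ± 0.26), the amino-terminal propeptidase gene Adamts3 (5.34 ± 0.54), and Pcolce2 (6.02 ± 0.26), which encodes an enhancer of Bmp1. Pcolce, the other enhancer gene on the list, was above background at 7.85 ± 0.35 (limma, adjusted p = 0.000387). It was not called against the antigenomic control. P4ha1, Fkbp10, Fkbp14, Adamts2 and Adamts14 were not analysed here.

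Of the cell-surface collagen receptors, 4 of 9 genes (44.4%) were above background, against 55.1% of all genes. These were Itgb1 (10.76 ± 0.06), the discoidin receptor genes Ddr1 (9.87 ± 0.28) and Ddr2 (10.61 ± 0.08), and the endocytic receptor gene Mrc2 (9.71 ± 0.42 log2 units, SD, n = 3). Integrins bind fibrillar collagen through an alpha chain paired with the product of Itgb1. Of the alpha chain genes Itga1 (5.37 ± 0.03), Itga2 (6.45 ± 0.12) and Itga10 (5.94 ± 0.84), none was above background by limma (adjusted p = 1, 0.0522 and 1), although Itga2 lay above the threshold on each array. Itga10, known as a receptor of cartilage cells, had 6.90 on replicate 3, against 5.29 and 5.64 on replicates 1 and 2. The platelet receptor gene Gp6 (5.41 ± 0.13) was not above background, nor was Lair1, and Itga11 was not analysed here.

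Proteins that coat or link collagen fibrils were above background for 11 of 14 genes (78.6%), against 55.1% of all genes. The small leucine-rich proteoglycans regulate fibril width, and their genes Dcn (11.43 ± 0.07), Bgn (10.32 ± 0.14), Lum (10.10 ± 0.19) and Fmod (8.11 ± 0.09 log2 units, SD, n = 3) were above background, with values over the threshold on each array. Ogn had 9.32 on replicate 3, against 8.47 and 7.94 on replicates 1 and 2, and Prelp had 8.08 against 6.97 and 7.18. Kera (5.63 ± 0.59), Tnxb (5.93 ± 0.13) and Comp (5.49 ± 0.28) were not above background. Dcn, Lum and Dpt also stand on the mesenchyme list, so these lists are not independent.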

How the data were processed

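Per probe set the authors deposited log2 values, made with RMA and the affy package per the submitters' processing notes; versions, settings, genome build and whether the arrays were normalized together are not given in the sources used here. RMA in general combines the probes of a set after background correction, and small signals come out closer together than the RNA amounts. The sorted values of replicates 1 and 2 differed by 0.005 log2 units in the median. Those of replicate 3 differed from them by 0.28 and 0.29, so the deposited values of replicate 3 had another distribution. The table held 45141 probe sets, of which 104 were controls. The platform annotation gave 28898 of them 1 gene symbol, 551 several and 15588 none, and only those with 1 were used. All 68 probe sets with a collagen symbol, the 1 of Col17a1 included, carried the same symbol in RefSeq by Entrez ID.

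The threshold of an array was subtracted from each gene, and the mean over the 3 samples was tested in R 4.3.3 by limma 3.58.1 (an intercept for each gene, over 17097 genes, empirical Bayes with a trend, one-sided p, Benjamini-Hochberg). The p-values leave out the uncertainty of the threshold, and the number of arrays limits the precision. The fit was also run on simulated data with independent arrays, a setting unlike the close pair of replicates 1 and 2. That run therefore says nothing about the effect of the pair on the p-values. Lists are described by counts, with no list test, and no correlation was computed over 3 arrays. Members and lists were chosen with earlier results of these data known.

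All collagen genes were named. Of the assembly, receptor and fibril partner lists the first 6 above background and the first 4 others were named in list order, and of each cell type list the first 3 and the first 2, plus Lgr5 and Itga6. Genes named beyond that, namely Serpinh1, Bmp1, Pcolce, Lox, Loxl1 to Loxl4, Lair1, Dpt, S100a4, Hapln1 and Cnmd, were chosen after their values were seen. Alternatives were other thresholds, probe sets, normalization, variance model and filter, and leaving out each replicate; averaging replicates 1 and 2 was added after seeing the data. Python 3.11.15, numpy 2.4.6, pandas 2.3.3 and matplotlib 3.10.9 were also used.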

Additional observations from a re-analysis of the deposited data

How the results depend on the processing

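The call of 31 of 41 collagen genes (20 above background, 11 not) was the same in all 13 alternatives that held them. The number above background was 21 to 28 over these alternatives, and 27 to 28 when 1 replicate was left out. Fits on 2 values per gene, those without 1 replicate included, rested largely on a variance shared between genes. They do not show that a call holds given the gene's own spread. Network collagens fell to 3 genes with the 99th percentile of the receptor genes, with tissue-restricted genes and with the antigenomic control, and transmembrane collagens to 1 with the last 2 and with the lowest probe set. With tissue-restricted genes as background, values of called genes turned negative for Col10a1 (-0.58), Col4a6 (-0.38), Col4a5 (-0.11), Col12a1 (-0.062) and Col25a1 (-0.024). With the antigenomic control they did so for Col10a1 (-0.82), Col4a6 (-0.62), Col4a5 (-0.35), Col12a1 (-0.30), Col25a1 (-0.26) and Col15a1 (-0.17), because the threshold was higher. With the lowest probe set this held for Col11a1 (-1.66), Col4a5 (-1.14), Col25a1 (-0.75) and Col8a1 (-0.26). Without replicate 2, Col8a2 was called (adjusted p = 0.00482). The median difference of replicate 3 from the other arrays over the collagen genes was 0.01 as deposited and -0.26 after quantile normalization, where that of all genes was -0.10. No paired analysis was possible because the series has 1 group. Collagen assembly genes above background numbered 17 to 24 over the alternatives.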
